A study of Mus musculus with 6 samples.

Results

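The inflammatory miRNAs mmu-miR-155-5p, mmu-miR-146a-5p and mmu-miR-146b-5p (written below without the prefix for mouse) were followed through a mouse hepatoma experiment. They are 3 of the 1881 mouse miRNAs on the array and were taken by name, as the 5' arms of hairpins that inflammatory signalling is known to induce. Tumours came from C57BL/6 mice inoculated in the right flank with 0.1 ml of cultured Hepa1-6 cells, a mouse hepatoma line, and both groups carry an age label of 28 days, though whether it marks the age of the mice or the day of treatment is not stated. The GLE group, 3 tumour replicates, came from mice given an agent that the labels call GLE without spelling it out, at a total daily dose of 0.023 g scaled to 10 g of body weight. The model group, also 3 tumour replicates and with a treatment label of none, came from mice given 0.2 ml of 0.9% NaCl a day for 28 days. Route, sex and how long GLE was given are not stated in the sources used here, and no genetic change of the mice is named. RNA of the whole tumour was measured with 1 one-colour array per labelled tumour replicate, so tumour cells and the host cells among them were read together.

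NF-kB, a transcription factor that Toll-like receptors and cytokines such as TNF and IL-1 switch on, induces the primary transcripts of miR-155 and miR-146a in macrophages, dendritic cells and lymphocytes. The pair then acts in opposite senses: miR-155 lowers brakes on cytokine signalling such as the phosphatase SHIP1 and the protein SOCS1, whereas miR-146a lowers the adaptors TRAF6 and IRAK1 and so dampens the pathway that induced it. In tumours both are known from infiltrating immune cells, and tumour cells can express them too.

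The sequences are shown because they set how far the 3 members can be told apart, both by their seeds and by the probes of the array. The mature sequences, from RefSeq (GRCm38.p6), are given 5' to 3' with the seed, bases 2 to 8, in capitals:
mmu-miR-155-5p: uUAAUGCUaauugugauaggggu
mmu-miR-146a-5p: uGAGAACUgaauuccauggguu
mmu-miR-146b-5p: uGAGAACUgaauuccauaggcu
The seed is the stretch that chiefly selects targets. Both miR-146 members carry GAGAACU, and no other of the 1679 mature mouse miRNAs in the RefSeq table does. The seed of miR-155-5p, UAAUGCU, is carried by that miRNA alone. Along their 22 bases the miR-146 members are identical at 20, and they differ by G18A and U21C, counted from 1 at the 5' end of miR-146a-5p with the base of miR-146b-5p last.

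Each hairpin, shown with both mature arms in capitals because both were probed, yields one arm that was detected and one that was not:
miR-155: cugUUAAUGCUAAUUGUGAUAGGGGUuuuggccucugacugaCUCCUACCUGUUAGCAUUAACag
miR-146a: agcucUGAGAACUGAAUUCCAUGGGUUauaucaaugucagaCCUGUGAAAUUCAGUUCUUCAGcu
miR-146b: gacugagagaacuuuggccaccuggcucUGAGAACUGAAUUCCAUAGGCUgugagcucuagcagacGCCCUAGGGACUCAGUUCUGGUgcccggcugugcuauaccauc
The 5' arm, the left block of capitals, was detected on all 6 arrays for each of the 3 hairpins. The 3' arm, on the right, was well above background in 0 spots on any array for miR-155-3p, miR-146a-3p or miR-146b-3p. The signals of those 3' arms ran from −3.24 to 1.97 intensity units per probe and array, below the 95th percentile of the negative control spots, which was 2.94 to 4.25 units. These 3' arms are the rarer strands of their hairpins and were not tested.

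Each member was read by a pair of probes, each printed in 15 spots, that pair with its 3' end. The longer probe of each pair is shown 5' to 3' as in the files, with capitals at the bases that differ between the miR-146 probes:
miR-155-5p probe: acccctatcacaattagc
miR-146a-5p probe: aAccCatggaattcagttc
miR-146b-5p probe: aGccTatggaattcagttc
Every probe is a perfect complement of its own miRNA, reaching from the last base back to base 6 or 7 in miR-155-5p and to base 4 or 5 in the miR-146 members. A miR-146a-5p probe meets miR-146b-5p with 2 mismatches, and the reverse holds as well, so some cross-binding between the miR-146 members is possible and its part in the values was not tested. The files map these longer probes, on mm9, to chromosome 16, 84714394 to 84714410, plus strand, for miR-155-5p, to chromosome 11, 43187908 to 43187925, minus strand, for miR-146a-5p, and to chromosome 19, 46417284 to 46417301, plus strand, for miR-146b-5p, in each case 1 base short of the probe. In the RefSeq gene table (GRCm38.p6), Mir155 lies within its host gene Mir155hg, Mir146b overlaps the predicted gene Gm36493, and Mir146, which yields miR-146a, overlaps no other listed gene and lies between Atp10b and Gm5782.

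Unscaled signal set how well each member was measured. For miR-155-5p the 18-base probe gave 235, 248 and 417 intensity units in the GLE tumours (replicates 1, 2 and 3, in this order throughout) and 204, 121 and 166 in the model tumours. For miR-146a-5p the 19-base probe gave 168, 226 and 269 units in the GLE tumours and 169, 115 and 123 in the model tumours. For miR-146b-5p the 19-base probe gave 102, 79.5 and 208 units in the GLE tumours and 65.5, 42.6 and 64.2 in the model tumours. GLE replicate 3 was the brightest tumour for each of them and model replicate 2 the dimmest. The coefficient of variation over the 15 spots had a median over arrays of 4.34%, 4.85% and 5.56% for these 3 probes. The shorter probes were dimmer and noisier, at medians of 6.87% and 8.95% for miR-155-5p and miR-146a-5p and 21.2% for miR-146b-5p.

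**Figure D1:**
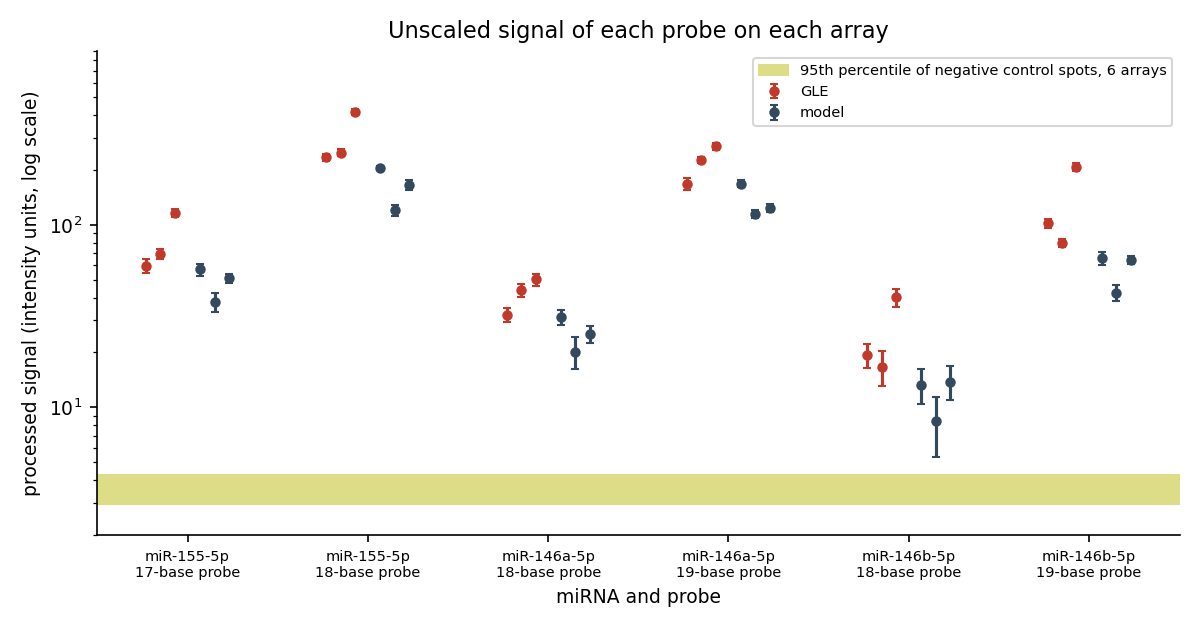
Processed signal of each probe in intensity units on a log axis, before scaling between arrays. Each point is the mean over the spots of one array (replicates 1 to 3 from left to right, GLE in red, model in blue), bars are the SD over spots, and the band spans the 95th percentile of the negative control spots on the 6 arrays, 2.94 to 4.25; every mean lies above the band, the lowest being 8.42 for the 18-base probe of miR-146b-5p.

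The 18-base probe of miR-146b-5p is the weak point of the set. It counted as detected on 3 GLE arrays and on 0 model arrays: 43 of 45 spots used were well above background in GLE tumours and 13 of 45 in model tumours. After scaling, its value lay at the floor, the lowest signal the arrays were taken to resolve, on 1 GLE array (replicate 2) and 2 model arrays (replicates 1 and 2). This probe thus entered the average through its detection in the GLE group alone. The average of both probes compresses the spread of miR-146b-5p, and the group difference of its 19-base probe alone is given beside it. The ranks, ratios and correlations of miR-146b-5p below rest on the average.

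Across the series, 378 to 458 miRNAs were detected per array and 388 were bright enough to test. The scaling reference, which is the 75th percentile of signal among probes that all 6 arrays detected, lay between 203 and 364 intensity units and was highest in GLE replicate 2. All arrays were on 1 slide and read in 1 scan, with the GLE arrays in one row of positions and the model arrays in the other per the file headers, so row and group cannot be told apart. The labelled tissue was checked against miR-122-5p, the defining miRNA of differentiated hepatocytes, which was detected on 1 GLE array and 1 model array only, so these hepatoma tumours showed little of that marker.

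With each array scaled to its reference, all 3 members were higher on average in GLE tumours, by 0.63 to 0.87 on the log2 scale, and none passed the test. A scaled value of 0 equals the reference, and values are averages over both probes. miR-155-5p, the activator of the set, stood at −0.78, −1.47 and −0.13 in GLE replicates 1, 2 and 3 and at −1.53, −1.78 and −1.20 in model replicates 1, 2 and 3. Replicates 1 and 3 of the GLE group lay above every model tumour, while GLE replicate 2 lay below model replicate 3, so the groups overlapped. Its difference, GLE minus model, was 0.71 ± 0.35 (SE of the limma fit, 3 arrays per group), or 1.64-fold, and its 95% interval ran from 0.92-fold to 2.90-fold. The unadjusted p was 0.0812 and the adjusted p 0.935 (limma, Benjamini-Hochberg over 388 miRNAs).

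miR-146a-5p, the feedback brake, stood at −1.47, −1.87 and −1.05 in GLE replicates 1 to 3 and at −2.11, −2.26 and −1.92 in model replicates 1 to 3. It was the one member whose groups did not overlap, with a gap of 0.048 between GLE replicate 2 and model replicate 3. Of all tested miRNAs, 4.64% had all GLE values above all model values, so a gap of this kind was met in 18 of the 388. The difference was 0.63 ± 0.24, or 1.55-fold (interval 1.04-fold to 2.31-fold). Its unadjusted p of 0.0345 was the second smallest of all, among the 1.55% of miRNAs under 0.05, and its adjusted p was 0.935 (limma). That p was above 0.05 without GLE replicate 1 (0.0793), GLE replicate 3 (0.0866), model replicate 1 (0.0841) or model replicate 2 (0.108), and with no scaling (0.0511), no filter on dim probes (0.0667) or normexp background correction (0.117). The gap closed when the median of the spots replaced their mean (−0.0053) and under normexp background correction (−0.19). The normexp setting added an offset of 50 intensity units to every spot, which compresses log2 differences of dim signals most.

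miR-146b-5p, which shares its seed with miR-146a-5p but is transcribed from another chromosome, stood at −2.19, −3.22 and −1.40 in GLE replicates 1 to 3 and at −3.25, −3.35 and −2.82 in model replicates 1 to 3. GLE replicate 2 fell inside the range of the model tumours, next to model replicate 1. The difference was 0.87 ± 0.44, the fourth largest positive difference of the 388, or 1.83-fold with an interval of 0.89-fold to 3.76-fold (unadjusted p = 0.0887, limma adjusted p = 0.935). The 19-base probe alone differed by 1.01 between the group means, against 0.74 for the floored 18-base probe. For the other members the probes lay closer, at 0.64 and 0.78 for the 17-base and 18-base probes of miR-155-5p and at 0.64 and 0.62 for the 18-base and 19-base probes of miR-146a-5p.

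**Figure D2:**
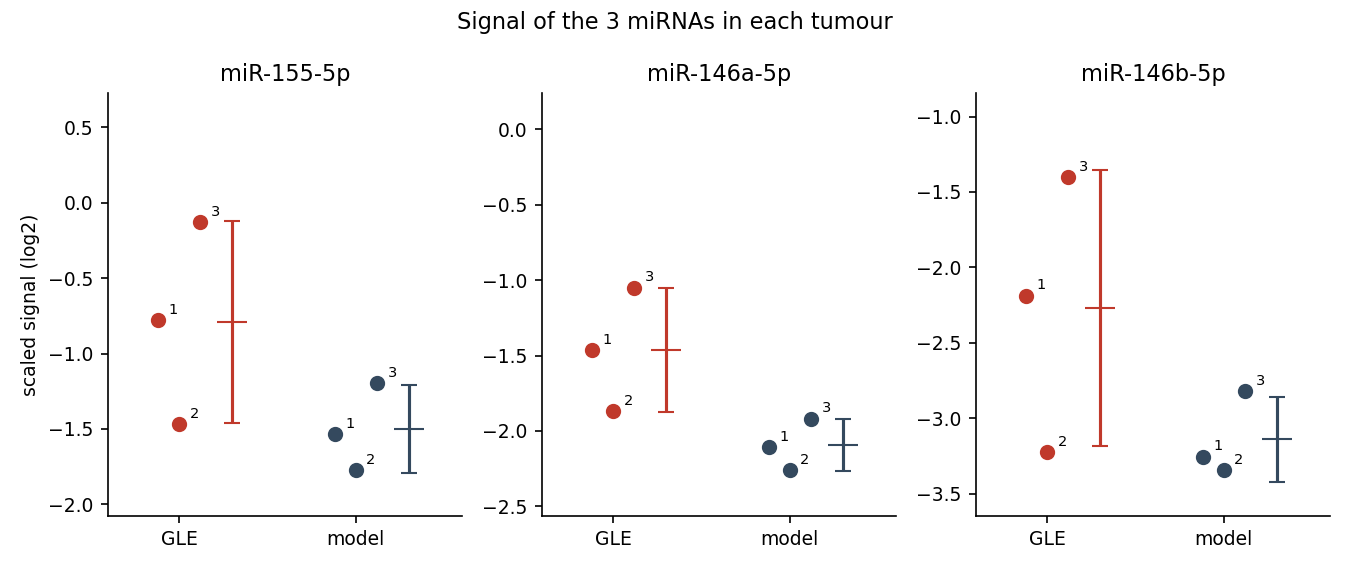
Scaled signal (log2, 0 = the array's reference) of the 3 miRNAs in each tumour, numbered by replicate, with the mean and SD of each group beside the points; the axes have different starts and the same length. GLE replicates 1 and 3 lie above all model tumours in each panel, and GLE replicate 2 lies among the model tumours for miR-155-5p and miR-146b-5p and 0.048 above the highest for miR-146a-5p.

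None of the members was called, and of the 388 tested miRNAs 0 were (0% at an adjusted p under 0.05 in limma, with 6 under an unadjusted 0.05). Positive differences were found for 51% of all tested miRNAs, whose median difference was 0.0078 and whose middle 95% ran from −0.43 to 0.70. On that scale miR-155-5p and miR-146b-5p lay just beyond the upper end, ranking 10 and 4 among positive differences, and miR-146a-5p ranked 16. A wider spread among GLE tumours was found for 297 of the 388 tested miRNAs (76.5%), the members included: the SD over GLE tumours was 0.67 for miR-155-5p and 0.92 for miR-146b-5p, against 0.29 and 0.28 over model tumours, and for miR-146a-5p it was 0.41 against 0.17 (n = 3 each).

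**Figure D3:**
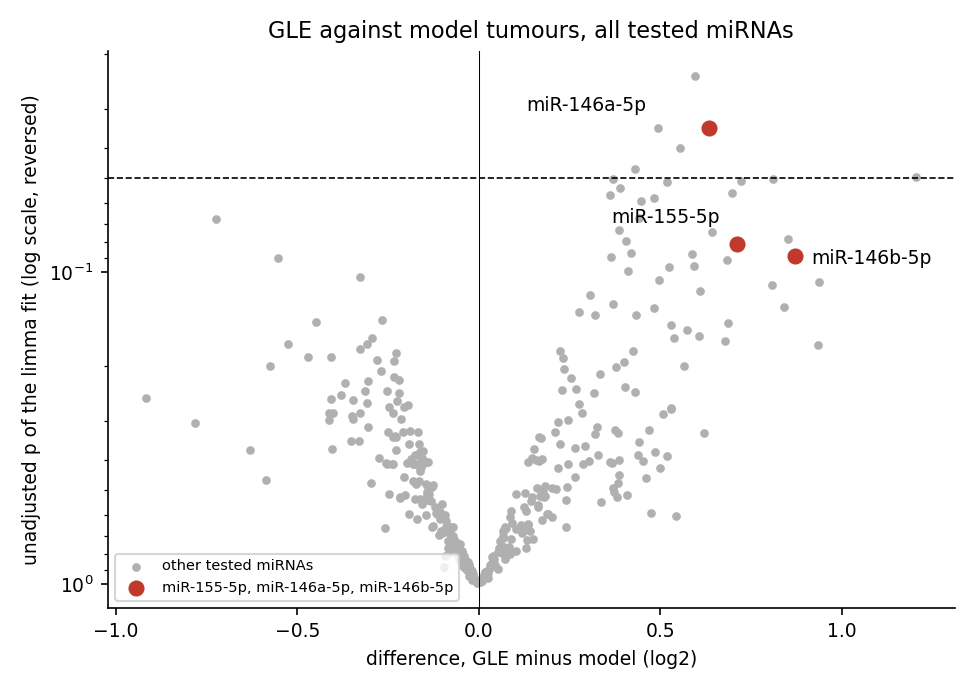
Difference between the group means (GLE minus model, log2) against the unadjusted p of the limma fit (log axis, reversed) for the 388 tested miRNAs, with the dashed line at 0.05. The 3 red points lie between 0.63 and 0.87 on the right, miR-146a-5p above the line at 0.0345 and the others below it at 0.0812 and 0.0887.

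Single tumours moved these values. Without GLE replicate 2 the differences were 1.05 for miR-155-5p, 0.84 for miR-146a-5p and 1.35 for miR-146b-5p, with limma adjusted p of 0.0683, 0.0683 and 0.0618. Without GLE replicate 3 they were 0.38, 0.43 and 0.44, and each adjusted p was 0.996. Each of the other omissions left the 3 members at 0.55 to 1.03. After scaling, replicate 2 was the lowest and replicate 3 the highest of the GLE group in each member. Before scaling, replicate 1 was the lowest of the GLE group for both probes of miR-155-5p and of miR-146a-5p. For miR-146b-5p it was replicate 2 with and without scaling. The place of GLE replicate 2 thus depends on the scaling, and the orders of tumours given below are those of scaled values. When limma weighted the arrays by their fit, GLE replicates 1, 2 and 3 had weights of 4.92, 0.22 and 0.40, so GLE replicate 1 dominated its group. That estimate stopped before convergence. In that limma fit miR-146a-5p (0.65, adjusted p = 0.0448) and miR-146b-5p (0.99, adjusted p = 0.0448) passed the threshold among 19 miRNAs in all. All 3 differences stayed positive in the 22 alternative settings and omissions fitted.

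Set against each other, the members did not differ in their response by more than the tumours varied. The log2 ratio of miR-155-5p to miR-146a-5p, the activator to the brake, moved by 0.077 between the groups (95% interval −0.38 to 0.53; two-sided exact permutation p = 0.7). The ratio of miR-155-5p to miR-146b-5p moved by −0.16 (−0.58 to 0.26; exact permutation p = 0.4), and that of miR-146a-5p to miR-146b-5p by −0.24 (−1.08 to 0.60; exact permutation p = 0.6). With 3 against 3 tumours the smallest p possible is 0.1, and over the 3 pairs each adjusted p was 0.7. The intervals rest on the spread of each ratio over the 6 tumours and are widest for the miR-146 members.

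From tumour to tumour the members went up and down together. miR-155-5p and miR-146b-5p ranked the 6 tumours in the same order, from GLE replicate 3 through GLE replicate 1 and model replicate 3 down to model replicate 2 (Pearson r = 0.992, exact permutation p = 0.00139; Spearman rho = 1.00, exact permutation p = 0.00278; 6 tumours). For miR-155-5p with miR-146a-5p, r was 0.982 (exact permutation p = 0.00417) and rho 0.94 (exact permutation p = 0.0167). For miR-146a-5p with miR-146b-5p, r was 0.969 (exact permutation p = 0.00556) and rho 0.94 (exact permutation p = 0.0167). Adjusted over these 6 relations, the p was 0.00833 for each r and 0.0167, 0.00833 and 0.0167 for the rhos of the 3 pairs in the order miR-155-5p with miR-146a-5p, miR-155-5p with miR-146b-5p, and miR-146a-5p with miR-146b-5p. Without the 2 tumours farthest from the median, GLE replicates 1 and 3, r was 0.82 for miR-155-5p with miR-146a-5p, 0.94 for miR-155-5p with miR-146b-5p and 0.62 for the miR-146 members, so the last relation rests largely on those tumours. With each group's mean removed, r was 0.999 for miR-155-5p with miR-146a-5p, 0.988 for miR-155-5p with miR-146b-5p and 0.987 for the miR-146 members. The permutations treat all 6 tumours as exchangeable, though they belong to a GLE and a model group. All values of an array also share its scaling, so these p-values do not measure a relation apart from group and scaling.

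In the main setting the amplitude differed between members. So did 1 step of the order, since miR-146a-5p placed GLE replicate 2 above model replicate 3 and the others placed it below. Over the 6 tumours the range was 1.95 for miR-146b-5p, 1.65 for miR-155-5p and 1.21 for miR-146a-5p on the log2 scale. Measured from the mean of the model tumours, GLE replicate 3 stood 1.74 higher in miR-146b-5p, 1.37 in miR-155-5p and 1.05 in miR-146a-5p, and GLE replicate 1 stood 0.95, 0.72 and 0.63 higher. In GLE replicate 2 the order was turned, at −0.083, 0.034 and 0.22. The 18-base probe of miR-146b-5p lay at the floor there. Its 19-base probe, which did not, was also below the model mean (−2.19 against −2.14). The ratio between the miR-146 members ranged by 1.00 over the 3 GLE tumours and by 0.25 over the 3 model tumours. In model replicates 1 and 2 the 18-base probe of miR-146b-5p also lay at the floor, which narrows the range over model tumours. The sizes of these ranges are therefore not comparable. With normexp background correction and its offset of 50 units, the group difference of miR-146b-5p (0.38) was no longer the largest. It was 0.45 for miR-155-5p and 0.31 for miR-146a-5p. The offset weighs most on the dimmest member, miR-146b-5p, so that setting cannot rank the members by amplitude.

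Such likeness was not particular to the 3 members. Among the 387 other tested miRNAs, miR-146b-5p ranked 4 by correlation with miR-155-5p and miR-146a-5p ranked 14, and 12.1% of all others had an r above 0.9 with miR-155-5p, 11.4% with miR-146a-5p and 13.7% with miR-146b-5p. The 5 miRNAs most like miR-155-5p, by Pearson r over the 6 tumours, were miR-199a-3p (0.998), miR-497a-5p (0.996), the lymphocyte miRNA miR-150-5p (0.993), miR-652-3p (0.990) and miR-214-3p (0.990). Those most like miR-146b-5p were miR-150-5p (0.998), the macrophage miRNA miR-511-3p (0.995), miR-299b-5p (0.992), miR-199a-3p (0.991) and miR-214-3p (0.990). For miR-146a-5p a different set led, made up of miR-532-5p (0.995), miR-340-5p (0.987), miR-22-3p (0.987), miR-21a-5p (0.986) and miR-10b-5p (0.983). Of these 12 miRNAs, 3 stood in the sets of both miR-155-5p and miR-146b-5p, namely miR-150-5p, miR-199a-3p and miR-214-3p, and 0 stood in all 3 sets. Both miR-199a-3p and miR-214-3p are on the fibroblast and smooth muscle list given below. These values describe 6 points that share their arrays and scaling and carry no test.

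Markers of blood cells moved with the members, as did the fibroblast miRNAs miR-199a-3p and miR-214-3p named above. All 6 listed blood cell miRNAs were detected on at least 1 array, and 5 were tested. Each of the 5 had a positive difference (median 0.84), 0 were called by limma, and 1 had an unadjusted p under 0.05. Over all tested miRNAs 51% were positive, the median difference was 0.0078 and 1.55% had an unadjusted p under 0.05. miR-142a-3p, a miRNA of all blood lineages, differed by 0.53 ± 0.27. The summed scaled signal of the 5, relative to the reference, was 10.1, 5.10 and 14.7 in GLE replicates 1 to 3 and 4.54, 4.22 and 6.68 in model replicates 1 to 3. Measured from the model mean, the average of the 5 stood 0.94, −0.047 and 1.48 higher in GLE replicates 1 to 3, which is the order of the members. Relative to that average, miR-155-5p differed between the groups by −0.080 (95% interval −0.38 to 0.22; two-sided exact permutation p = 0.4), miR-146a-5p by −0.16 (−0.84 to 0.52; exact permutation p = 0.6) and miR-146b-5p by 0.081 (−0.20 to 0.36; exact permutation p = 0.6), with an adjusted p of 0.6 for each over the 3 tests. In bulk tumours more cells of a type and more of the miRNA per cell cannot be told apart, and the part of blood cells in the members' differences was not tested beyond these ratios.

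**Figure D4:**
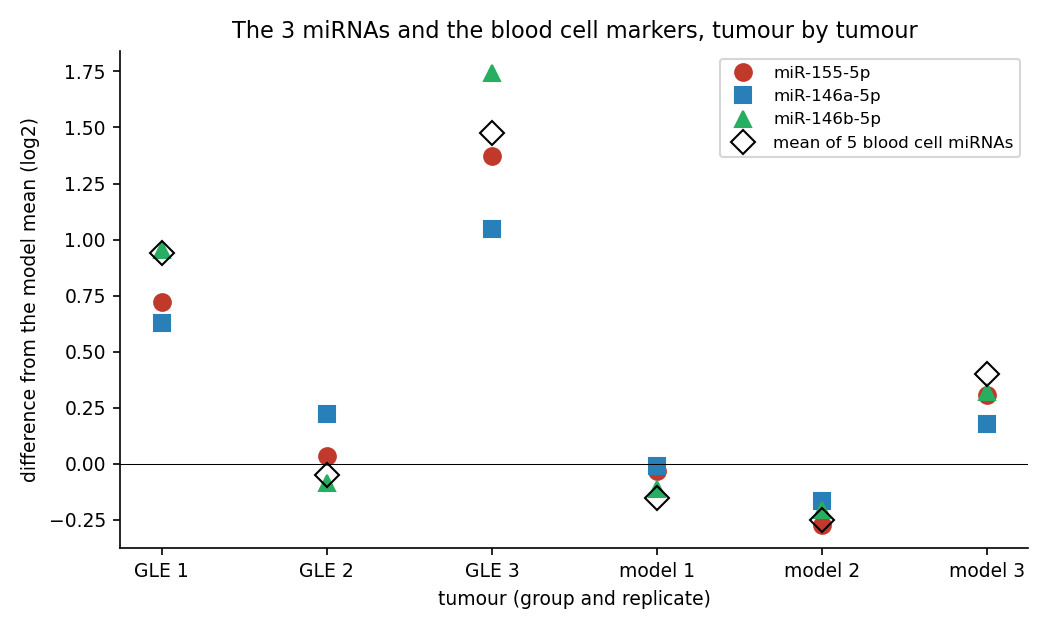
Difference of each tumour from the mean of the 3 model tumours (log2) for the 3 miRNAs and for the mean of 5 blood cell miRNAs (open diamonds). GLE replicate 3 is highest and model replicate 2 lowest for all 4 series, and in the GLE tumours the diamonds, at 0.94, −0.047 and 1.48, lie between the lowest and the highest member.

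Other cell type lists gave the following, beside positive differences in 51% of all tested miRNAs. The fibroblast and smooth muscle list was tested in full, with 4 of 5 members positive (median 0.61) and a summed signal of 1.45 to 4.25 in GLE and 1.26 to 1.92 in model tumours; its miR-199a-3p differed by 0.81 ± 0.44. In the endothelium, miR-126a-3p was tested, differed by 0.49 ± 0.19 and ran on the log2 scale from 1.52 to 2.00 in GLE against 1.20 to 1.44 in model tumours. Of all tested miRNAs, 4.64% had all GLE values above all model values. Skeletal muscle miRNAs had 3 of 4 positive, summing to 1.30 to 4.45 against 0.81 to 2.00, with miR-1a-3p at 0.62 ± 0.59. Of the hepatocyte list 3 of 5 were tested, 2 of them positive, summing to 0.55 to 2.61 against 0.71 to 1.22, and miR-122-3p was not detected. GLE replicate 2 stood apart in this list: miR-192-5p was at −3.01, 0.26 and −3.46 in GLE replicates 1 to 3 and at −1.64, −2.51 and −3.69 in the model tumours, and miR-194-5p at −3.90, −0.97 and −4.17 against −2.82, −3.39 and −4.25. The value of −4.25 is the floor. miR-194-5p was detected on 3 GLE arrays and 2 model arrays, so it was tested through its detection in the GLE group. The 2 tested erythrocyte miRNAs and the 3 tested epithelial ones were all negative, with epithelial sums of 1.59 to 11.9 against 4.42 to 9.40; miR-451a differed by −0.26 ± 0.56, and miR-200c-3p and miR-141-3p were not detected. The 3 epithelial miRNAs (miR-200a-3p, miR-200b-3p and miR-429-3p) were highest in GLE replicate 2 and lowest in GLE replicate 3, the reverse of the members among GLE tumours. For miR-200a-3p the values were −0.48, 1.40 and −1.62 in GLE replicates 1 to 3 and 0.95, 0.61 and −0.49 in the model tumours. In all of these lists limma called 0 members. The part of these cells in the members' values was not tested.

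The wider set of inflammatory miRNAs had no common direction. Of 22 listed miRNAs that Toll-like receptor, cytokine or NF-kB signalling induces or that act on it, other than the members, 15 were tested, 0 were called (limma), and 6 had a positive and 9 a negative difference, with a median of −0.098 beside 0.0078 over all tested miRNAs. Non-overlapping groups were found in 3 of the 15, with 2 higher and 1 lower in GLE tumours, against 6.7% of all tested miRNAs in either direction. The 7 not detected were the 3 undetected arms above, miR-9-5p and miR-147-3p, which Toll-like receptor ligands induce in myeloid cells, miR-187-3p and miR-511-5p. The 4 of smallest p were all positive, as were all 6 of the 388 tested miRNAs with an unadjusted p under 0.05 (limma). miR-21a-5p, induced by STAT3 and NF-kB and abundant in tumours, differed by 0.39 ± 0.18 (unadjusted p = 0.0732). The macrophage miRNA miR-511-3p, encoded within the mannose receptor gene Mrc1, was at −1.55, −2.86 and −0.80 in GLE replicates 1 to 3 and at −2.82, −2.99 and −2.21 in model replicates 1 to 3, the same order of GLE tumours as in the members, and differed by 0.94 ± 0.51. miR-222-3p differed by 0.31 ± 0.17 and the myeloid miRNA miR-223-3p by 0.84 ± 0.49. Every one of these had an adjusted p of 0.935 (limma).

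**Figure D5:**
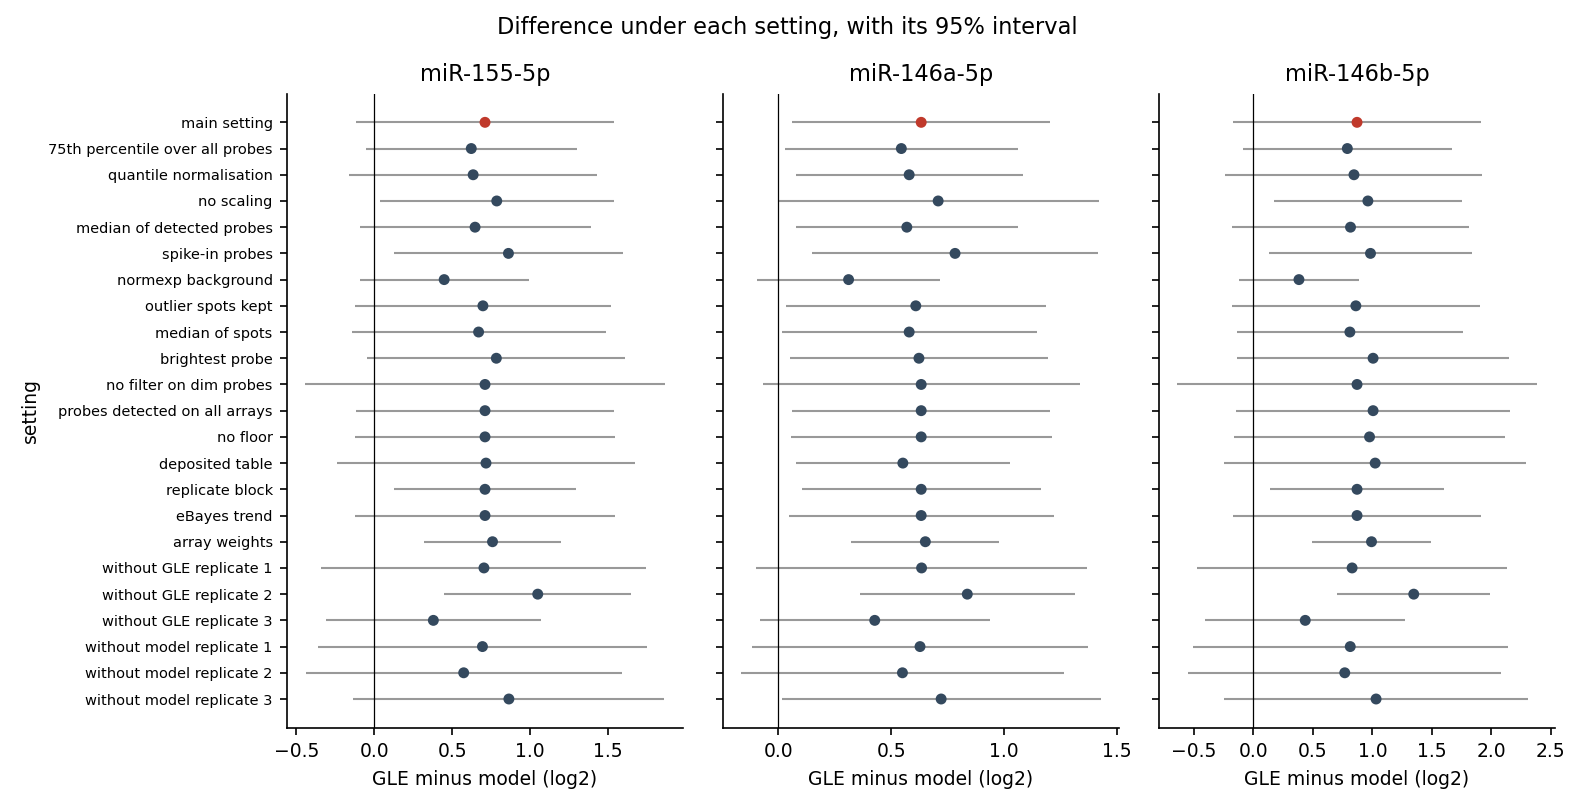
Difference (GLE minus model, log2) of each miRNA with its 95% interval from limma, in the main setting (red) and in the 22 alternatives and omissions (blue), one line each; the axes differ between panels. All points lie right of 0, from 0.38 to 1.05 for miR-155-5p, 0.31 to 0.84 for miR-146a-5p and 0.38 to 1.35 for miR-146b-5p, and the intervals of all 3 lie wholly above 0 in 4 settings: spike-in probes, the replicate block, array weights and without GLE replicate 2.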

How the data were processed

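Spot intensities had been background-subtracted and spatially detrended within each array by the authors with Agilent Feature Extraction, per the file headers. The version, 10.7.1.1, is also named in the submitters' processing notes. Control spots and outlier-flagged spots were dropped and the rest averaged per probe. A probe counted as detected where more than 0.5 of the spots kept were well above background. Arrays were scaled to the 75th percentile of the 636 probes detected throughout, floored at −4.25 (log2), and a miRNA's probes averaged if detected on every array of at least 1 group. Groups were compared with limma 3.58.1 (R 4.3.3), adjusted by Benjamini-Hochberg over 388 miRNAs with a threshold of 0.05, and single values by exact permutation over 20 relabelings or 720 pairings. Precision is limited by the 6 arrays; the median miRNA's difference had a 95% interval of ± 0.54. The fit was first tested on simulated data. The labels call the arrays replicate tumours but do not say that each came from another mouse, so p-values measure the spread between these samples. No 2 arrays held identical spot values (0%).

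The authors' deposited table of processed values was used as an alternative. The authors deposited these as log2 values, judging from the slope on the scanner values of 1.09 to 1.17 (Spearman correlation 0.963 to 0.973). Its column medians were −3.20, −3.32 and −3.27 (GLE) and −3.32, −3.17 and −3.13 (model), each equal to the column's lowest value. Its centring is unknown, how it was normalised is not stated, and each column holds 1 array, so it has no direction to settle.

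The members, the lists and the rule for named miRNAs were chosen with earlier results of these data known. The rule took the members, their other arms, the 5 most correlated miRNAs per member, the 4 pathway miRNAs of smallest p and the first name of each marker list, detected or not; miR-192-5p, miR-194-5p and the epithelial miRNAs with values were added after seeing theirs. The ratios to blood cell miRNAs and the single-probe values were added after seeing the data.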

Additional observations from a re-analysis of the deposited data

How the results depend on the processing

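The 3 members kept a positive difference in all 22 alternatives and in both single probes. miR-155-5p ranged from 0.38 to 1.05, miR-146a-5p from 0.43 to 0.84 and miR-146b-5p from 0.44 to 1.35 with an array left out, and normexp gave 0.45, 0.31 and 0.38. Array weights (limma, whose estimate stopped before convergence, with weights of 0.22 and 0.40 for GLE replicates 2 and 3 and 4.92 for GLE replicate 1) called 19 miRNAs, among them miR-146a-5p (0.65, adjusted p = 0.0448) and miR-146b-5p (0.99, adjusted p = 0.0448), but not miR-155-5p (adjusted p = 0.0579). Over all alternatives the adjusted p of miR-146a-5p and miR-146b-5p ran from 0.0448 to 1.00. With an array left out, 0 to 2 miRNAs were called, the 2 without GLE replicate 2, where 107 had an unadjusted p under 0.05, and no member was among them. Scaling to 9 spike-in probes moved the median of all miRNAs to 0.16 and the members to 0.86, 0.78 and 0.98 (unadjusted p = 0.0256, 0.0198 and 0.0272, limma). The groups of miR-155-5p no longer overlapped with no scaling (gap 0.13) or spike-in scaling (0.21), nor did those of miR-146b-5p with no scaling (0.29).

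The ratio of miR-155-5p to miR-146b-5p turned sign under normexp (0.066), whose offset compresses the differences of dim probes most. That of miR-155-5p to miR-146a-5p turned sign without GLE replicate 3 (−0.048 to 0.21 over omissions). The cause of either was not tested. The other ratios ran from −0.30 to −0.056 and from −0.51 to −0.0079 over omissions. Pearson r ran over omissions from 0.95 to 0.995 (miR-155-5p with miR-146a-5p), 0.976 to 0.999 (miR-155-5p with miR-146b-5p) and 0.911 to 0.996 (the miR-146 members). With 5 arrays the adjusted p missed the threshold without GLE replicate 1 or 3 (exact permutation, 0.05 each). With no scaling r was lower for every pair, at 0.95 for miR-155-5p with either miR-146 member and 0.834 for the miR-146 members. Each adjusted p by exact permutation stayed under the threshold there. The size of r thus depends in part on the scaling, most for the miR-146 members. Over all tested miRNAs, same-numbered arrays had no common sign of correlation between their deviations (−0.62, −0.18 and 0.37). With 3 arrays per group, each centred on its group mean, this cannot settle whether replicate numbers pair the arrays. In each member both groups ranked their replicates in the same order, 3, 1 and 2 from high to low. Both groups filled the same slide columns, and pairing by column was not tested. With a replicate block limma called 0 miRNAs, and 17 had an unadjusted p under 0.05. In that limma fit the members stayed at 0.71, 0.63 and 0.87 (unadjusted p = 0.0243, 0.0263 and 0.0270, adjusted p = 0.887 each). A slide block was not run, since there was 1 slide. Signal over background limited miR-146b-5p most.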
